A study of Homo sapiens with 5 samples.

Results

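Cell adhesion molecules of the immunoglobulin and cadherin type were followed in HLF, an established hepatocellular carcinoma cell line. The starting list held 10 gene symbols, of which those with a value in each of 3 deposited tables were kept. In this way 6 genes were retained of the 10976 genes that all tables share, namely BSG, MDGA1, BCAM, ALCAM, ICAM1 and CDH2. EMB and PCDH20 had a value in the table for USP28-KO alone, and L1CAM and MCAM had no value in any table. The list was chosen by measured values of the same data, because EMB, PCDH20, MDGA1 and BCAM are among the genes with the most extreme fold changes in the authors' tables. Those fold changes and their p-values are not used or printed here, and none of the levels below is a test of them.

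RNA was sequenced from 5 conditions of the line, with 1 sample listed for each. HLF cells with a control guide RNA (USP28-Ctrl) and cells with a guide RNA against USP28 (USP28-KO) form the first pair. The other conditions share the USP28 guide RNA and carry in addition a lentiviral pRRL plasmid, as the empty control vector, with wild-type USP28 (USP28-WT) or with a monomeric mutant that cannot dimerize (USP28-M). USP28 is a deubiquitinase that stabilizes MYC, and the series was made to ask how its loss and its return change transcription. Single clones were picked after editing, so features of 1 clone and of the deletion cannot be told apart.

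The only level that could be used is the authors' average log2 CPM, the log2 of the read count scaled to 1e6 reads per library (CPM), averaged over all libraries of a fit. There are 2 distinct averages per gene. The first covers USP28-Ctrl and USP28-KO, and the second, the same in both tables for the reconstituted cells, covers control vector, USP28-WT and USP28-M. They are named the knockout average and the reconstitution average below. Neither splits into conditions, so no spread between replicates, no test and no comparison of single conditions can be given. Depth was worked out from the steps of the lowest averages. For the knockout average, all libraries together held about 7690000 reads, and for the reconstitution average about 30460000, where the steps were less regular (66.1% of 1234 low genes within 0.1 reads of a whole number, against 96.6% of 1110). Intervals given with a level are exact 95% Poisson intervals on the reads behind it, prior counts of the average included, and cover counting error only.

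Adhesion molecules of the immunoglobulin superfamily carry stacked immunoglobulin domains outside the cell and bind partners on neighbouring cells or in the matrix, often without calcium. Cadherins bind their like on the next cell in a calcium-dependent manner, and classical cadherins are tied to actin through catenins. Hepatocytes carry both E-cadherin (CDH1) and N-cadherin (CDH2). Whether CDH2 marks a mesenchymal state in this line was not tested. Of 10 mesenchymal markers, CDH2 included, 9 had a value in both averages, led by VIM with an average log2 CPM of 11.71 and 11.69. FN1 (6.32 and 5.20), ZEB1 (4.31 and 3.49), ZEB2 (5.73 and 5.02) and COL1A1 (4.47 and 2.84) were lower in the second average. Higher in it were SPARC (8.11 and 8.60), TWIST1 (4.11 and 4.38), AXL (9.48 and 9.60) and CDH2. Of 10 epithelial markers 4 had a value in both, the keratins KRT8 (11.18 and 12.02) and KRT18 (10.66 and 11.21) and the tight junction genes CLDN1 (6.89 and 7.21) and OCLN (6.01 and 6.14). These marker values come from separately normalized averages and were not set against genes of like GC content. A shift in cell state between the averages was not tested. Of 10 hepatocyte markers 1 had a value in the knockout average (FGB, 6.003) and 2 in the reconstitution average (FGB, 3.20, and SERPINA1, 1.88). CDH1, EPCAM, CLDN3, CLDN4, KRT19, ESRP1 and ALB had no value in either average. The filter on low genes is not given, so this does not show that they are unexpressed. Endothelial markers gave 0 values of 6 genes. Leukocyte markers gave 2 of 6 in each average, all at or under a log2 CPM of 3.15. The targeted gene, USP28, stood at 5.15 in the knockout average and at 9.79 in the reconstitution average, of which the ectopic alleles are a part.

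Promoter sequence is shown for the member with the highest level, for the one whose averages lay farthest apart and for the one that was most above the shift of all genes. The letters are the 250 bases before a RefSeq transcript start on GRCh38.p14, read 5' to 3' on the strand of the gene. BSG lies on the plus strand of chromosome 19 (start of the window 572346, end 572595), MDGA1 on the minus strand of chromosome 6 (37697884 to 37698133) and ICAM1 on the plus strand of chromosome 19 (10270870 to 10271119). Capitals mark CACGTG, the E-box that MYC and its partner MAX recognize, and GGAAATTCC, a kappaB-type site.
BSG: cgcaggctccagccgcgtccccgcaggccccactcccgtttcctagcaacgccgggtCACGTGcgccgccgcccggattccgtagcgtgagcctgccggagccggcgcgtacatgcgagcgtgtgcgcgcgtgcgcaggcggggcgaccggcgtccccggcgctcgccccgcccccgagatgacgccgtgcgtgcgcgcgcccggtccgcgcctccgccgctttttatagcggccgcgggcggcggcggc
MDGA1: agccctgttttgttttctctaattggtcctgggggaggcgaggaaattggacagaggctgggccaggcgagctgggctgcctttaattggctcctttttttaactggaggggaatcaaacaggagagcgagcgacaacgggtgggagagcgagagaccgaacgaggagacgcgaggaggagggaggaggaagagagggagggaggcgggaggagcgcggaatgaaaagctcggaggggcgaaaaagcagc
ICAM1: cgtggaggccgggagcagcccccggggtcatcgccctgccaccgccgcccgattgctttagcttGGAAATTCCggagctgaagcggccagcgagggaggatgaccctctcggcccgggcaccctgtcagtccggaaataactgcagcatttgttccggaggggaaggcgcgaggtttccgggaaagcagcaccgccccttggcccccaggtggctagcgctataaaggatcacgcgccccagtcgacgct

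The BSG window holds 1 CACGTG, which 6.34% of 35116 windows of this length hold on either strand, and the palindrome reads the same on both. The ICAM1 window holds 1 GGAAATTCC, found on either strand in 0.413% of windows. Both motifs were chosen with the sequences in view, so these shares do not measure how unusual a match is. Neither motif has a full match in the MDGA1 window. BSG has 50 CpG dinucleotides in its window, ICAM1 23 and MDGA1 15, against a median of 11 over all windows. For BSG this is the second of 2 windows, and the first, upstream of another start, has 13 CpG and no CACGTG. Over the 9 windows of the 6 members, these were the single matches to either motif.

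BSG (basigin, CD147) is a glycoprotein that escorts monocarboxylate transporters to the cell surface. Its gene lies on chromosome 19 of GRCh38 from 571277 to 583493 and has 10 protein-coding transcripts in GENCODE release 29. BSG had an average log2 CPM of 8.68 (interval 8.63 to 8.73) in the knockout average and of 8.71 (8.69 to 8.74) in the reconstitution average. It thus ranked above 96.9% and 97.0% of the genes with a symbol. Its close relative EMB (embigin, chromosome 5, 50396192 to 50443248, minus strand) stood at 4.14 (3.89 to 4.38) in the knockout average, from about 136 reads over all libraries. NPTN (neuroplastin), the remaining member of the family, had values of 6.33 and 6.43. Per kilobase of the longest coding transcript, the scale on which genes can be compared with each other, BSG had 207 CPM, NPTN 28.7 and EMB 4.12 in the knockout average. BSG thus had the highest level per length of its family. Of the transporters these proteins accompany, SLC16A1 (MCT1) had 27.0 and 24.9 CPM per kb in the knockout and reconstitution averages, SLC16A3 (MCT4) 15.7 and 25.3, and SLC16A7 (MCT2) 0.42 in the knockout average.

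EMB and PCDH20 are the listed genes with a knockout average but no reconstitution average. PCDH20, a protocadherin (chromosome 13, 61409858 to 61427849, minus strand), had a knockout average of 3.08 (2.71 to 3.43), from about 65.2 reads, and 1.34 CPM per kb. Of 993 genes within 0.25 of the level of EMB, 981 (98.8%) had a value in both averages, and 12, EMB included, had none in the reconstitution tables. For PCDH20 this was 696 of 729 (95.5%). Of all genes with a knockout average, 98.9% had both. The lowest reconstitution average of any gene is 0.40, below the lowest knockout average of 1.70. EMB and PCDH20 were listed for fold changes in the same data, so these shares are a description and no independent evidence. The knockout average does not show which condition holds their reads.

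MDGA1, a protein held at the membrane by a lipid anchor that binds neuroligins, lies on chromosome 6 from 37630679 to 37699306 on the minus strand. Its average log2 CPM was 7.24 (7.16 to 7.32) across USP28-Ctrl and USP28-KO and 4.19 (4.07 to 4.31) across the reconstituted cells. On the linear scale this is 151 CPM against 18.3 CPM, or 8.28 times as much in the former. MDGA1 ranked above 87.3% of the genes with a symbol in the first and above 35.2% in the second. Ranked by CPM per kb it stood above 54.7% and 12.3%, and when genes under an average log2 CPM of 3 were left out, above 86.5% and 20.9%. Its relative MDGA2 was 3.88 and 2.99, while the neuroligin genes NLGN2 (5.63 and 5.86) and NLGN4X (6.13 and 6.13) were nearly level. Within the list of MDGA genes and neuroligins MDGA1 had the highest level per length in the knockout average (14.1 CPM per kb). In the reconstitution average NLGN2 (12.5) and NLGN4X (11.9) were close at the top. MDGA1 (1.70) and MDGA2 (1.56) were close at the bottom, and neither pair is put in order.

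ALCAM (CD166) and BCAM (the Lutheran glycoprotein) are close relatives of MCAM within the immunoglobulin superfamily. ALCAM binds itself and CD6 of T cells, and BCAM binds laminins with the alpha5 chain. ALCAM (chromosome 3, 105366909 to 105576900, plus strand) had averages of 6.87 (6.77 to 6.96) and 5.90 (5.83 to 5.97). BCAM (chromosome 19, 44809059 to 44821421, plus strand) had 3.83 (3.54 to 4.10) and 3.10 (2.92 to 3.28). Both genes had the lower value in the reconstitution average, with intervals that did not overlap but that cover counting error only. For ALCAM the gap of -0.97 on the log2 scale was -0.36 against genes of like GC content. Per length ALCAM exceeded BCAM in both averages, with 24.8 against 4.16 CPM per kb in the first and 12.7 against 2.52 in the second. LAMA5, which encodes the alpha5 chain, had 10.6 and 12.1 CPM per kb, and ITGB1, the integrin subunit in the same list of receptors, had 403 and 333.

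ICAM1, the ligand of the leukocyte integrin LFA-1 and an inflammation-induced gene, lies on chromosome 19 from 10270835 to 10286615 on the plus strand. It had an average log2 CPM of 4.01 (3.75 to 4.27) in the knockout average and of 4.97 (4.88 to 5.07) in the reconstitution average. These intervals did not overlap, but they cover counting error only. ICAM1 ranked above 21.0% of the genes with a symbol in the first and above 50.4% in the second. Ranked by CPM per kb it stood above 23.7% and 50.5%. In its group ICAM3 had values of 2.89 and 3.11, and VCAM1 went the other way, with 3.89 and 2.61. The integrin genes that encode LFA-1, ITGAL and ITGB2, had no value in either average.

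CDH2 (N-cadherin, chromosome 18, 27950966 to 28177446, minus strand) had averages of 7.72 (7.65 to 7.79) and 8.06 (8.03 to 8.09). Of 22 cadherin genes listed with it, 4 had a knockout average and 5 a reconstitution average. CDH2 led them with 48.7 and 61.8 CPM per kb. CDH24 followed with 10.7 and 11.3, then CDH18 with 4.14 and 3.92 and CDH12 with 2.996 and 2.22, and CDH4 had 2.57 in the reconstitution average. Of 7 catenin genes, which encode the partners of classical cadherins inside the cell, 4 had values. CTNNA1 had 154 and 192 CPM per kb, CTNNB1 49.9 and 58.5, and CTNND1 28.8 and 38.1. JUP (plakoglobin), the catenin shared with desmosomes, had 3.12 and 14.5 CPM per kb. Its knockout value is under the median of all genes (12.1), while the other catenins with values were above the medians in both averages. Among proteases that cut several members and their subunits, ADAM10 had 9.34 and 6.34 CPM per kb, ADAM17 10.3 and 14.9, PSENEN 43.7 and 28.5, NCSTN 42.0 and 43.1, and APH1A 47.4 and 46.2.

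By level per length, the order in the knockout average was BSG (207 CPM per kb), CDH2 (48.7), ALCAM (24.8), MDGA1 (14.1), ICAM1 (4.96), BCAM (4.16), EMB (4.12) and PCDH20 (1.34). ICAM1, BCAM and EMB could not be put in order, since their intervals of 4.13 to 5.92, 3.41 to 5.01 and 3.46 to 4.88 CPM per kb overlap. In the reconstitution average the order was BSG (212), CDH2 (61.8), ALCAM (12.7), ICAM1 (9.67), BCAM (2.52) and MDGA1 (1.70), and no neighbouring intervals overlapped. Other transcript lengths left BSG and CDH2 in the first places in both averages. With the median length of the coding transcripts MDGA1 (83.6) passed ALCAM (34.9) in the knockout average, while ICAM1 (24.3) passed ALCAM (17.9) in the reconstitution average. MDGA1 passed BCAM there with the median length (10.1 against 3.50) and with the coding length (6.25 against 4.56). With the coding length EMB (18.0) also passed ICAM1 (10.1) in the knockout average.

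The averages of a gene were set side by side as the reconstitution average minus the knockout average. The tables were normalized separately and hold other cells, and the number of their libraries is not given in the sources used here. USP28 status, vector, clone, normalization and any difference in library handling therefore cannot be told apart, and the difference is a description without a test. Over the 10976 shared genes its median was -0.12, so the members are given relative to that shift. MDGA1 was 2.93 below it on the log2 scale (-2.93), ALCAM 0.84 below (-0.84) and BCAM 0.60 below (-0.60). ICAM1 was 1.08 above it and CDH2 0.47 above. BSG was 0.16 above it, the smallest distance of the 6, and changed sign (-0.028) when set against genes of like GC content. MDGA1 and BCAM were chosen by fold changes between libraries that also make up these averages, so their places in this distribution are no independent evidence. Of the shared genes, 13 had a lower difference than MDGA1, and 195 had a higher one than ICAM1. MDGA1 and ICAM1 were the members outside the central 95% of the genes, which runs from -1.54 to 0.87 before the shift is taken off. ICAM1 was at 0.96 on that scale and MDGA1 at -3.05. ALCAM (-0.97) and BCAM (-0.72) lay at percentiles 9.78 and 16.0, BSG (0.035) at 62.8 and CDH2 (0.34) at 84.2.

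The difference was related to base composition. Across 10351 genes it was higher where the longest coding transcript had more GC, with a Spearman's rho of 0.488, given as a description because all genes share the same libraries. ALCAM (39.6% GC) and CDH2 (45.0%) have AT-rich transcripts among the members, and BCAM (64.1%), BSG (62.7%), MDGA1 (58.8%) and ICAM1 (56.9%) GC-rich ones. Set against the median of genes of like GC content, a comparison added once the values were known, ALCAM lay 0.36 below (-0.36), less than without this step. MDGA1 was then at -3.12, BCAM at -0.74, ICAM1 at 0.85 and CDH2 at 0.46. MDGA1 had a percentile of 0.058 and ICAM1 of 96.9 on this scale. ICAM1 was thus inside the central 95% of genes.

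The wider families showed how far the members stand for their kind. The 16 lists held 115 symbols, of which 55 had a knockout average, 53 a reconstitution average and 50 both. Of the 6 members, 3 were above and 3 below the median difference of all genes, with a median difference of -0.34 before the shift is taken off. All 4 catenins with both values were above it, with a median of 0.36, and JUP had the widest difference (2.21). All 4 non-clustered protocadherins with both values were below it, with a median of -0.91, and PCDH20 is listed with them but has no difference. Unlike the members, these lists were not set against genes of like GC content or like level. Counting intervals were not worked out for the other genes of the 16 lists, so places between close values are not settled. PCDH7 had the highest level of that list, 46.6 and 34.6 CPM per kb. The lowest was PCDH9, with 0.85 and 0.27, and PCDH10 was close to it in the knockout average (1.09). Among nectins and CADMs, PVR was highest in the knockout average (69.4 CPM per kb, with NECTIN2 at 45.7). In the reconstitution average PVR (72.6) and NECTIN2 (72.2) were nearly level and are not put in order. NECTIN1 (0.69) and CADM2 (0.93) were close at the bottom of the knockout average, and CADM2 was lowest in the reconstitution average (0.20). JAM3 led its list with 20.2 and 20.5 CPM per kb and CXADR was last with 5.10 and 4.79. Of the large cadherins CLSTN1 was highest in the reconstitution average (50.0), while CLSTN1 (36.0) and FAT1 (33.6) were close in the knockout average. CELSR2 was lowest in the knockout average (0.42), and CLSTN2 (0.21) and CELSR2 (0.27) were close at the bottom of the reconstitution average. Of 7 desmosomal cadherins, DSG2 (1.23 CPM per kb) and DSC2 (0.53) had a knockout average. NCAM2 was the single gene of the list of L1 and NCAM relatives with values, 2.18 and 1.01 CPM per kb.

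**Figure D1:**
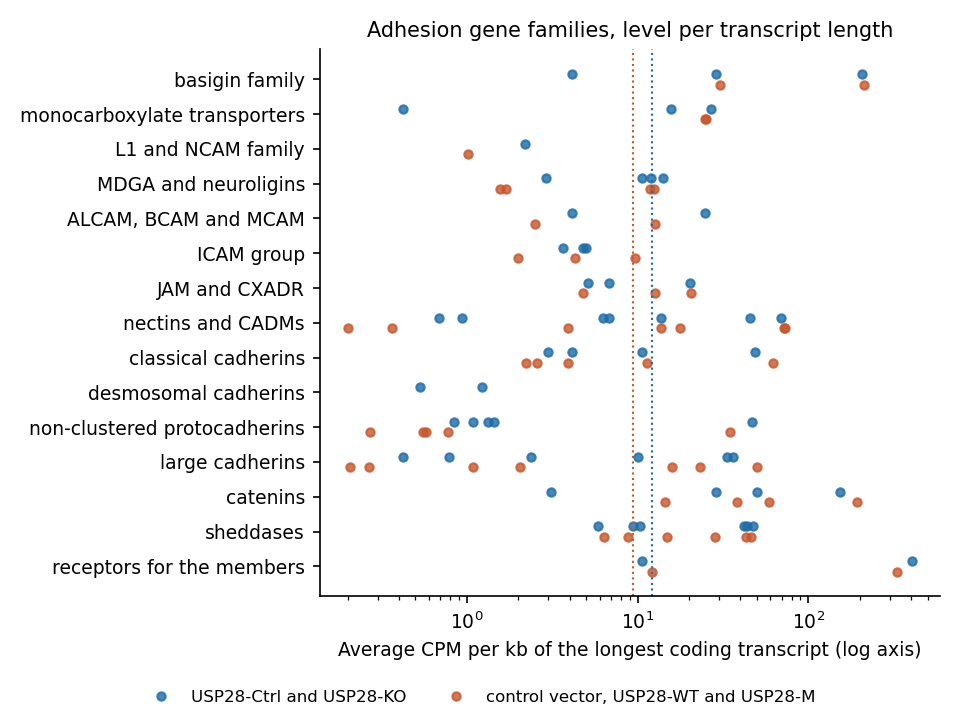
Level per length (x axis, average CPM per kb of the longest coding transcript, log axis) of the adhesion gene families and partners, 1 point per gene, for the libraries of USP28-Ctrl and USP28-KO (blue) and of control vector, USP28-WT and USP28-M (orange). Dotted lines are the medians of all genes (12.1 and 9.46 CPM per kb). The non-clustered protocadherins other than PCDH7 lie far left of these lines, and all catenins but JUP in the knockout average (3.12) lie right of them.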

How the data were processed

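Total RNA of HLF cells was made into libraries with a NEBNext Ultra kit, named Ultra II in the labels and Ultra in the study's methods. Per the labels, bcl2fastq 2.20, STAR 2.5.4, edgeR 3.26.8 and hg19 were used by the authors. The counter, the annotation, the filter on low genes and the number of libraries are not given in the sources used here. The deposited tables hold, per NCBI gene ID, the authors' average log2 CPM, which alone was analysed, and their fold changes, p-values and adjusted p-values. The reconstitution tables add an F statistic. Apart from the average, none of these columns was used. The header of the table for USP28-KO sits 1 column left of its values, so the average was taken by position. The knockout table has 11102 genes and each table of the reconstituted cells 12342.

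The members and lists were chosen with earlier results of these data known. Named genes are the members, USP28, close relatives and partners by list, and the highest and lowest of other lists with near neighbours. Of these, 1 gene is not reported here. The motifs were chosen with the sequences in view. CPM was divided by the longest protein-coding transcript of GENCODE release 29 (GRCh38), found for 93.9% and 91.4% of genes. CPM per read was the spacing of the lowest 10% of averages. It was tried on simulated data only, made as plain pooled sums with depths near those found here. The authors' own fit was not simulated, so the read numbers are approximate. Alternatives were other transcript lengths, gene minimums and centrings, and like GC content in 20 bins, which was added later. Planned protein sequences were not analysed here. Scripts ran on Python 3.11.15 with matplotlib 3.10.9, scipy 1.17.1, pandas 2.3.3 and numpy 2.4.6.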

Additional observations from a re-analysis of the deposited data

How the results depend on the processing

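No paired analysis was possible because each condition lists 1 sample and the averages hold no values of single samples. Leaving out a sample was not possible for the same reason, and taking off the prior count was not run because the number of libraries is not given. Differences between the averages moved as follows against the value centred on all shared genes. Without centring, BSG was 0.035, ALCAM -0.97 and CDH2 0.34. Centred on the 5604 shared genes with both averages of at least 5, BSG was 0.042 and CDH2 0.35. Relative to genes of like GC content, BSG reversed to -0.028, and MDGA1 was -3.12 and ALCAM -0.36. BCAM and ICAM1 moved by less than their counting interval under these alternatives, and the sign of each member other than BSG was the same under all of them. Levels per kb were 1.14 to 5.94 times as high with the median transcript length and 1.59 to 4.36 times with the coding length. Percentiles among all genes moved by more than their counting interval for 10 of 14 values with genes at 3 or more and for 8 of 14 when ranked per kb. For MDGA1 the latter gave 54.7 against 87.3 in the knockout average and 12.3 against 35.2 in the reconstitution average. With genes at 3 or more, BCAM was at 1.60 against 19.4 and MDGA1 at 20.9 in the reconstitution average. Medians over genes with both values moved by over 1.5 times for 4 of 30 list values, among them that of the members in the knockout average (19.5 against 9.52 CPM per kb). Few reads limit PCDH20, BCAM, ICAM1 and EMB most.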
